A study of Mus musculus with 21 samples.

Results

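The 9 genes described here move lipids out of cells, carry them outside cells or take them up: apolipoprotein D (Apod), apolipoprotein E (Apoe), clusterin (Clu, also called apolipoprotein J), lipocalin 2 (Lcn2), the ATP-binding cassette transporters Abca1, Abcg1 and Abca2, and the receptors Lrp1 and Scarb1. They were chosen by gene symbol, and all 9 were found among the 24091 genes of the expression table. RNA was sequenced from C3H/10T1/2, a multipotent mesenchymal progenitor line made from mouse embryos and grown in medium with fetal bovine serum. The cells expressed histone H2B with a lysine or a glutamine in place of a glutamate, as E71K and E71Q, E76K and E76Q, or E113K and E113Q, or expressed wild-type H2B (WT). A change to lysine turns the negative charge of glutamate positive, and a change to glutamine leaves the side chain uncharged. Each of the 7 groups had 3 libraries, 21 in all. The labels name no vector, promoter, clone or separate line for any of these genotypes, so a line of cells and the H2B it expressed cannot be told apart. The series text calls the 3 libraries of a group independent biological replicates without saying whether they were separate cultures, and p-values measure the spread between these libraries, which may be technical.

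Cholesterol cannot be broken down in most cells, so a surplus has to leave. ABCA1 passes cholesterol and phospholipid to lipid-poor apolipoproteins, ABCG1 passes cholesterol to particles that are already formed, and SR-BI, the product of Scarb1, exchanges cholesterol esters and free cholesterol with high-density lipoprotein. Apolipoprotein E and clusterin carry lipid between cells, LRP1 takes up particles that bear apolipoprotein E, and apolipoprotein D and lipocalin 2 are lipocalins, small barrel-shaped proteins that bind hydrophobic ligands. Genes of cholesterol export are switched on by the liver X receptors (LXR), which respond to oxidized sterols, and genes of sterol synthesis by SREBP2, which is active when membranes are short of sterol.

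Values are TPM, transcript abundance corrected for transcript length and scaled to a fixed total in each library, so levels may be set side by side between genes. The file gives no read total, and the depth of each library is unknown. Correlations of log2(TPM + 1) across genes were 0.935 to 0.980 within groups and 0.864 to 0.945 between groups. In 4 groups the libraries were spread along a common axis, the first principal component of differences between libraries of one group, and 1 library lay apart from its mates: E71K replicate 3, E71Q replicate 1, E76K replicate 3 and E113Q replicate 3. The locus Mir6236 took 2.19% to 30.6% of TPM, most in E71K replicate 2. Next were E71Q replicate 1, a library apart, with 21.2%, and E76Q replicate 3 with 15%. The 12192 genes that averaged 1 TPM or more were tested with limma on log2(TPM + 1), and a gene is called where the Benjamini-Hochberg adjusted p was below 0.05. Of the 9 genes 7 were tested, and Abcg1 and Lcn2 fell under the filter. Fold changes are log2 differences on the log2(TPM + 1) scale, which understates changes of low genes.

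RefSeq (GRCm38.p6) gives promoter windows for 6 of the 9 genes. Bases upstream of the annotated start are printed for Apod, which had the highest ratio between group means of the tested members, and for Lrp1 and Abca2, which moved in opposite directions in E113K. A single site is printed for Abca1, whose levels lay beside those of sterol genes. Each is written 5′ to 3′ on the strand of its gene.
Apod, chr16:31314809-31315058, minus strand: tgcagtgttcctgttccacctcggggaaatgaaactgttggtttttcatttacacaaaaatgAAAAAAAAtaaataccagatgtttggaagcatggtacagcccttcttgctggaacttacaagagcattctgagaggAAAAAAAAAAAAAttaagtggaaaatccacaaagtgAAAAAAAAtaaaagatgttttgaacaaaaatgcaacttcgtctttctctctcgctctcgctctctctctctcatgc
Lrp1, chr10:127621149-127621398, minus strand: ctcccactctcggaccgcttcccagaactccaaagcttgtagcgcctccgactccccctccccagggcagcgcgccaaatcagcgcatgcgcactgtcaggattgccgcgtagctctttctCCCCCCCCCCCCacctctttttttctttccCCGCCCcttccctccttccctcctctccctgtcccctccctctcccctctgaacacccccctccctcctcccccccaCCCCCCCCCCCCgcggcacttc
Abca2, chr2:25428349-25428598, plus strand: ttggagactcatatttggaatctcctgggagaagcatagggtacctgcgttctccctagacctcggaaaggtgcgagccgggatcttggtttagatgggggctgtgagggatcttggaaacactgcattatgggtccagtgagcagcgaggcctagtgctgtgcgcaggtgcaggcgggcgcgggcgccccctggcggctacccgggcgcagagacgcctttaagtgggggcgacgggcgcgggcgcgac
Abca1, chr4:53159940-53159969, minus strand: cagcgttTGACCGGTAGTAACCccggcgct

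Capitals mark runs of at least 8 A in Apod, runs of at least 8 C and the GC box (GGGCGG, here on the opposite strand) in Lrp1, and a direct repeat on the opposite strand of Abca1, spelled GGTNA, 5 bases of any kind, and GGTCA. That repeat is at positions -67 to -53 from the start used for the promoter window, chr4 base 53159895. RefSeq's span of Abca1 reaches base 53159988, so the printed site lies between these starts and inside the gene as annotated. The repeat is a loosened form of the element to which LXR binds with its partner RXR, and the loosened spelling was chosen with the known Abca1 element in mind. On either strand it occurred in 0.177% of 32851 promoter windows. The strict form, AGGTCA repeated after a gap of 4 bases, occurred in 0.0152% of windows and in none of the members' windows. The sterol regulatory element as known from the LDL receptor promoter occurred in 0.0731% of windows and also in none of the members' windows. The Abca1 window also held an E-box (CACGTG, in 6.02% of windows), a TATA box (TATAAA, in 12.4%) and the GC box (in 32.7%). Runs of 8 A occurred in 7.31% of windows and runs of 8 C in 3.91%. The Apod window was 36.4% G+C, with 6.24% of all windows lower, against 67.2% for Lrp1, 63.2% for Abca2 and a median of 52.4% over all windows. These are matches of letters and show no binding.

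Levels differed widely in scale. Lrp1 was the most abundant member in WT, Scarb1, Abca2 and Clu were at 15.7 to 31.2 TPM there, Abca1 was near 3 TPM, and Apoe, Apod and Lcn2 were near 1 TPM. In E113K, Apod reached the level of the more abundant genes. The F test over all 7 groups called 6 of the 7 tested members, Clu being the exception, where 77.1% of all tested genes were called.

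**Figure D1:**
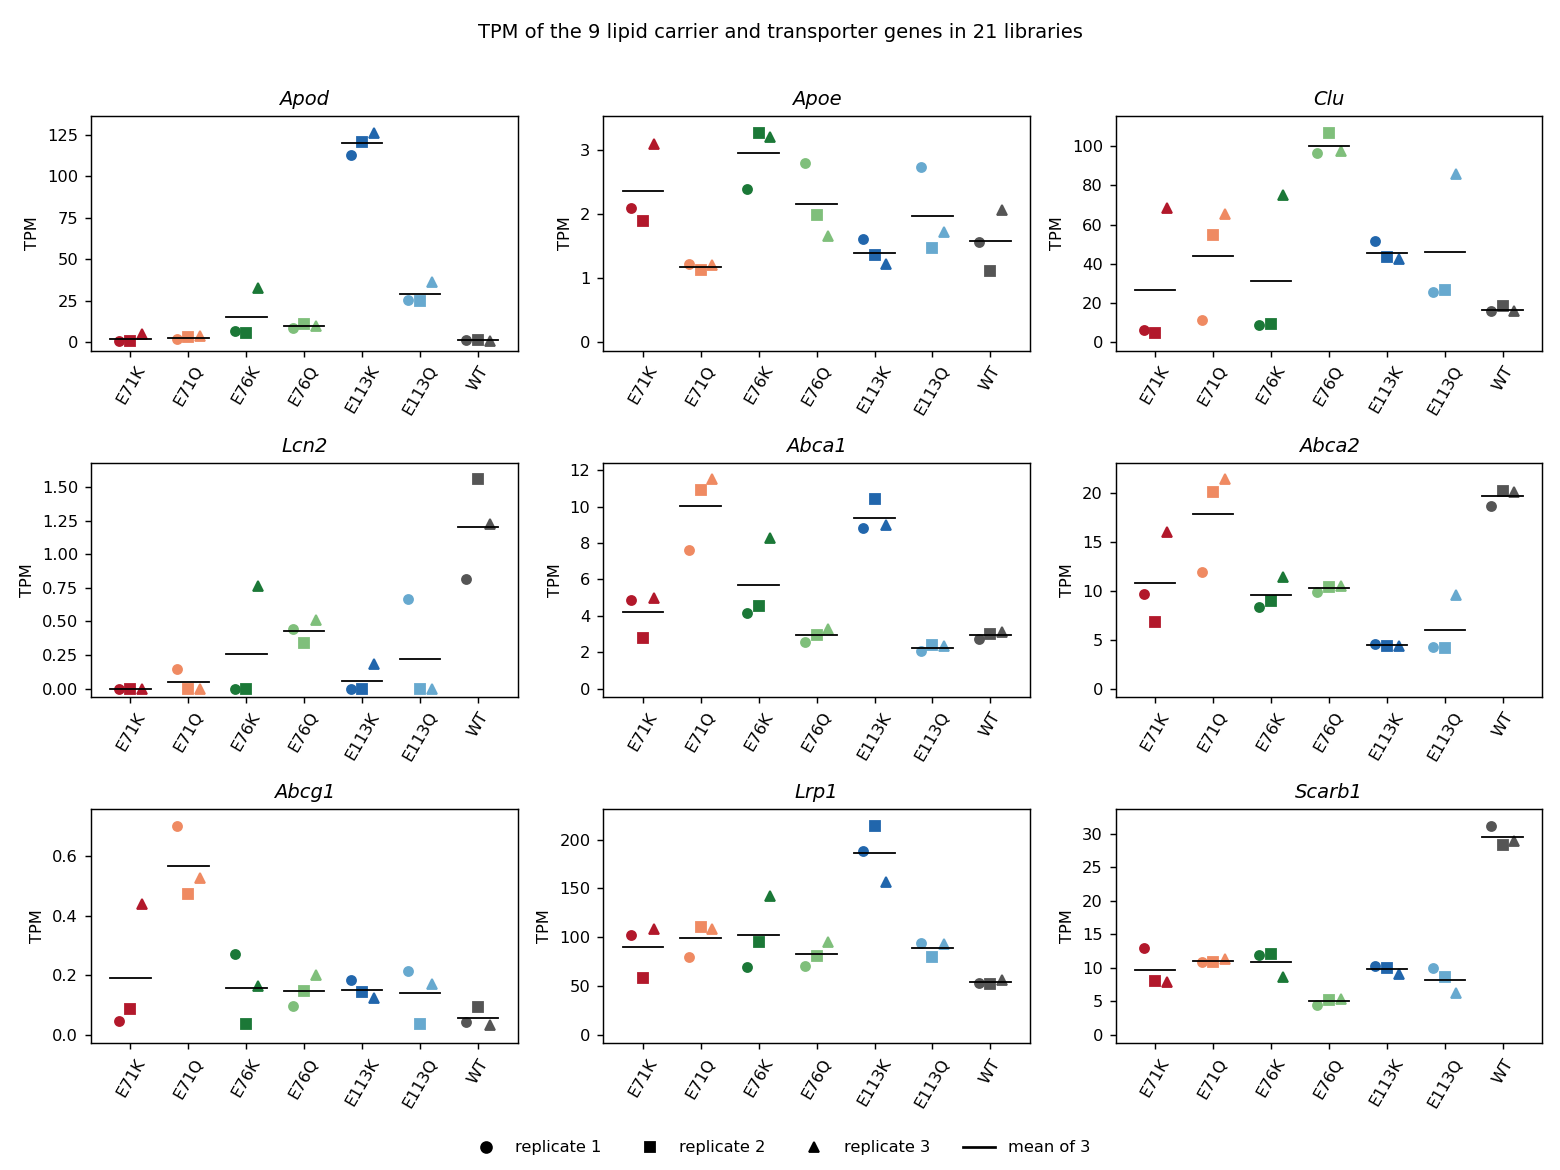
TPM (vertical axis, linear, its own scale in each panel) of the 9 genes in the 21 libraries; points are libraries, short lines are the means of 3, and WT is at the right of each panel. Apod is highest in E113K, Scarb1 is highest in WT, Lrp1 is lowest in WT, and Clu is split within E71K, E71Q, E76K and E113Q.

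Apod, whose product carries arachidonic acid and progesterone among other ligands and rises in cells that stop dividing, had the highest ratio between the highest and lowest group means among the tested members. It was at 112.6, 120.7 and 126.1 TPM in E113K, at 25.5, 25.0 and 36.2 TPM in E113Q, and at 1.24, 1.33 and 0.611 TPM in WT. Every E113K library lay above every other library of the series, and every E113Q library above every WT library. The 3 libraries of E76K were at 6.69, 5.42 and 32.9 TPM, with replicate 3, the library apart, about as high as E113Q. Those of E76Q were at 8.80, 11.0 and 9.76 TPM. In E71K the gene was at 0.482, 0.846 and 4.75 TPM and in E71Q at 1.90, 2.82 and 3.49 TPM. Of the E71K libraries 1 lay below the WT range, 1 within it and 1, the library apart, above it, and the E71Q libraries all lay above it.

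Apod was higher than in WT in 4 mutants. The log2 fold change was 5.89 ± 0.50 (SE) in E113K (limma adjusted p = 5.13e-08), 3.86 in E113Q (limma adjusted p = 1.29e-05), 2.55 in E76K (limma adjusted p = 0.000798) and 2.41 in E76Q (limma adjusted p = 0.000904), with the same SE. It was 0.30 in E71K and 0.86 in E71Q, neither called (limma adjusted p = 0.709 and 0.175). The E71Q difference was called in a fit of only the E71Q and WT libraries (limma adjusted p = 0.025). It was also called without the 4 libraries that lay apart (1.03, limma adjusted p = 9.68e-05), where the E71K difference was -0.30 and not called. The SE there was 0.16, which follows in part from leaving out libraries for lying far from their mates. The group mean was 119.8 ± 6.81 TPM in E113K and 1.06 ± 0.391 TPM in WT (SD, n = 3 each). In a bulk sample, a larger share of cells with Apod RNA and more Apod RNA in each cell cannot be told apart. By rank among all genes, Apod was between 1207 and 1324 in the E113K libraries, against between 11364 and 12210 in those of WT. The order of group means was E113K, E113Q, E76K, E76Q, E71Q, E71K and WT, with whole ranges separate between E113K and E113Q and between E76Q and E71Q, and overlapping between the other neighbours. In E76K, the log2 fold change over all alternatives ran from 1.46 to 3.28 and was called in each.

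Clu, a secreted chaperone and lipid carrier, showed a split within groups. It was at 6.13, 4.71 and 68.3 TPM in E71K, at 11.4, 54.5 and 65.5 TPM in E71Q, at 8.76, 9.38 and 75.1 TPM in E76K, and at 25.4, 26.4 and 85.6 TPM in E113Q. In each of these groups the library away from its mates was the one that lay apart on the common axis: E71K replicate 3, E71Q replicate 1, E76K replicate 3 and E113Q replicate 3. The remaining groups were narrow, at 96.5, 107 and 97.7 TPM in E76Q, 51.4, 43.3 and 42.5 TPM in E113K, and 15.7, 18.4 and 15.7 TPM in WT. All E76Q libraries lay above all other libraries, and all E113K and E113Q libraries lay above WT.

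Against WT, Clu was called only in E76Q, by 2.53 ± 0.86 (SE) on the log2 scale (limma adjusted p = 0.025). That call was lost without any one E76Q library, without WT replicate 1 and without WT replicate 3, with adjusted p up to 0.0632. In E113K the log2 difference was 1.41 with no overlap of libraries and the shared SE of 0.86 (limma adjusted p = 0.184). That SE comes mostly from the 4 groups with a library apart. In fits of only the mutant and WT libraries compared, Clu was called in E76Q (limma adjusted p = 6.93e-06) and E113K (limma adjusted p = 8.19e-05). It was not called in such fits in E71K, E71Q, E76K or E113Q. Without these 4 libraries the SE fell to 0.11 to 0.12, which follows in part from leaving out libraries for lying far from their mates. The log2 difference from WT was then -1.46 in E71K, 1.79 in E71Q, -0.80 in E76K, 2.53 in E76Q, 1.41 in E113K and 0.62 in E113Q, and all 6 were called (highest limma adjusted p = 0.000951, in E113Q). In E76K the sign turned with 1 library, since the log2 difference was 0.17 with all 3 libraries. The genes most like Clu over the 21 libraries were C1qtnf6 (Pearson r = 0.951) and Eid1 (r = 0.943).

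**Figure D2:**
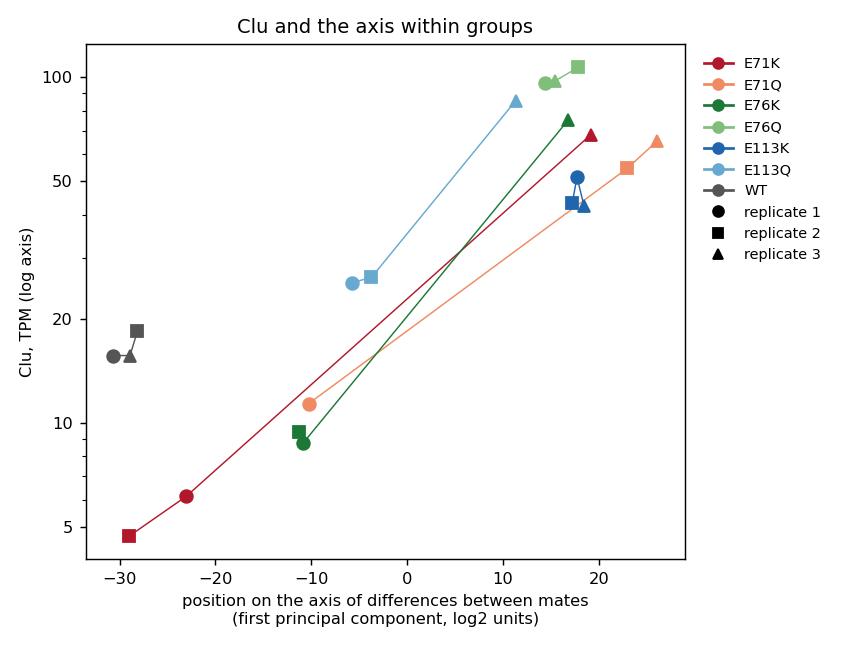
Clu in TPM (vertical, log axis) against the position of each library on the axis of differences between libraries of one group (horizontal, log2 units, made without the group placed on it); points are the 21 libraries, coloured by group. In E71K, E71Q, E76K and E113Q the libraries that are high on the axis are high in Clu, as in E71K with 68.3 TPM at 19.2 on the axis, against 6.13 TPM at -23.1 and 4.71 TPM at -29.0.

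Apoe, the main apolipoprotein made outside the liver, was low in all groups. It was at 2.38, 3.26 and 3.19 TPM in E76K, against 1.57, 1.12 and 2.07 TPM in WT, and these did not overlap. The log2 difference of 0.62 ± 0.19 (SE) was called (limma adjusted p = 0.0214), and it was lost under quantile normalization (0.36) and without E76K replicate 2 or 3 or WT replicate 1 or 2. In the other mutants it ranged from -0.23 in E71Q to 0.38 in E71K, with none called. The E71K difference was called with Mir6236 left out (0.48, limma adjusted p = 0.0411). E71Q was the narrowest group, at 1.22, 1.12 and 1.20 TPM, and lay below every library of E71K (2.10, 1.89 and 3.09 TPM).

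Lcn2, an iron-siderophore and fatty acid binding lipocalin of the acute phase, was near the lower end of the table. It was listed at 0 in all 3 E71K libraries, at 0.147, 0 and 0 TPM in E71Q, at 0, 0 and 0.762 TPM in E76K, and at 0.443, 0.340 and 0.508 TPM in E76Q. The libraries of E113K were at 0, 0 and 0.180 TPM, those of E113Q at 0.665, 0 and 0 TPM, and those of WT at 0.819, 1.56 and 1.23 TPM. Every WT library was above every mutant library. With a mean under 1 TPM and no counts, Lcn2 was not tested, and no fold change is given.

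Abca1, the exporter that starts the formation of high-density lipoprotein, was high in a glutamine mutant at one residue and in a lysine mutant at another. It was at 7.59, 10.9 and 11.5 TPM in E71Q and at 8.81, 10.4 and 8.96 TPM in E113K, against 2.71, 3.02 and 3.11 TPM in WT. All 6 of these mutant libraries lay above all WT libraries. E76K was intermediate at 4.17, 4.55 and 8.30 TPM, with the library apart highest. E71K, at 4.87, 2.77 and 4.96 TPM, and E76Q, at 2.56, 2.94 and 3.29 TPM, overlapped WT. The E113Q libraries, at 2.06, 2.38 and 2.33 TPM, all lay below WT.

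The log2 fold change against WT was 1.46 ± 0.21 (SE) in E71Q (limma adjusted p = 2.65e-05), 1.39 in E113K (limma adjusted p = 3.9e-05) and 0.71 in E76K (limma adjusted p = 0.0155). The E76K call was lost without E76K replicate 3 (0.44, limma adjusted p = 0.106), without WT replicate 1 and in a fit of only those 6 libraries. In E71K the difference was 0.37, in E76Q -0.0089 and in E113Q -0.28, and none was called (limma adjusted p = 0.216, 0.986 and 0.337). The E71K difference was called with Mir6236 left out (0.47, limma adjusted p = 0.0381) and without E71K replicate 2 (0.59, limma adjusted p = 0.0355), the library with 30.6% of its TPM in Mir6236. The E113Q difference was called under quantile normalization (-0.40) and in a fit of only those 6 libraries.

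Setting lysine against glutamine at the same residue gave Abca1 differences of both signs. The lysine minus glutamine difference was -1.09 ± 0.21 at E71 (SE, limma adjusted p = 0.00132), 0.72 at E76 (limma adjusted p = 0.0148) and 1.67 at E113 (limma adjusted p = 1.94e-05). The 3 comparisons share no library. At E71 the ranges were 2.77 to 4.96 TPM in E71K and 7.59 to 11.5 TPM in E71Q. At E113 they were 8.81 to 10.4 TPM in E113K and 2.06 to 2.38 TPM in E113Q, so both residues gave groups without overlap and in opposite order. The E71 call was lost only in a fit of those 6 libraries (limma adjusted p = 0.105), among 33 alternatives, and the E113 call was kept in all 33. Of the 33, 21 left out 1 library each, and many of those libraries were in neither group compared. Leaving out such a library changes the SE and the adjustment but not the difference itself. At E76 the call was lost without E76K replicate 3 or E76Q replicate 1 and in a fit of those 6 libraries (0.41 to 0.87 over the alternatives).

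Genes of sterol synthesis had the same 3 signs. This list, with the enzymes of the pathway and other targets of SREBP2, had 24 genes, all tested. In E71K against E71Q, 0 were called higher and 14 lower, with a median log2 difference of -0.77 beside 0 for all tested genes. In E76K against E76Q, 12 were higher and 0 lower, with a median of 0.63 beside 0.14, and in E113K against E113Q, 20 were higher and 0 lower, with a median of 1.09 beside 0.037. Of all tested genes, 12.8% were higher and 12.3% lower at E71, 23.4% and 8.46% at E76, and 14.6% and 13.3% at E113. Without the 4 libraries that lay apart, the counts higher and lower were 0 and 24 at E71, 18 and 2 at E76, and 22 and 0 at E113. The number of all genes called rose there as well, to 6541 at E71 (3060 with all libraries), 6054 at E76 (3890) and 5486 at E113 (3408). Leaving out single libraries gave 9 lower at E71 without E71Q replicate 2 and 8 without replicate 3, 7 higher at E76 without E76K replicate 3, and 13 higher at E113 without E113Q replicate 1 or 2. A limma fit of only the 6 libraries at E71 called 0 lower, where 346 of all tested genes were called. In the fit of all libraries, 0 of the 24 were higher at E71 at an unadjusted p below 0.05. Against WT, the list had 0 higher and 3 lower in E71K, 6 and 1 in E71Q, 1 and 0 in E76K, 0 and 9 in E76Q, 13 and 0 in E113K, and 0 and 4 in E113Q. Over all tested genes, 12.5% were higher and 14.2% lower in E71K, 20.7% and 23.5% in E71Q, 23.5% and 9.67% in E76K, 22% and 22.4% in E76Q, 30.3% and 20.7% in E113K, and 17.9% and 12.7% in E113Q. The list's median log2 difference from WT was -0.30 in E71K, 0.36 in E71Q, 0.24 in E76K, -0.49 in E76Q, 0.65 in E113K and -0.28 in E113Q. The median of all tested genes was 0 in E71K and E71Q, 0.16 in E76K, 0.023 in E76Q, 0.13 in E113K and 0.065 in E113Q.

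Among the sterol genes named by rule, Hsd17b7, an enzyme of the late pathway, differed by -1.09 at E71, 0.19 at E76 and 1.62 at E113 (lysine minus glutamine, log2), called at E71 and E113. Tm7sf2, a sterol reductase, differed by -2.34, 0.73 and 1.77 at the same residues in that order, called at E71 and E113. Insig1, which holds SREBP in the endoplasmic reticulum, differed by -0.41, 1.24 and 1.72, called at E76 and E113. Hsd17b7 was also the gene most like Abca1 over the 21 libraries (Pearson r = 0.923), followed by Tns1 (r = 0.902). Abca1 and the list parted within groups. In E113Q the list median lay -0.55, -0.53 and 0.14 from the WT mean while Abca1 lay -0.37, -0.22 and -0.24 from it. In E71Q replicate 1, a library apart, the list median was -0.24 and Abca1 1.12.

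**Figure D3:**
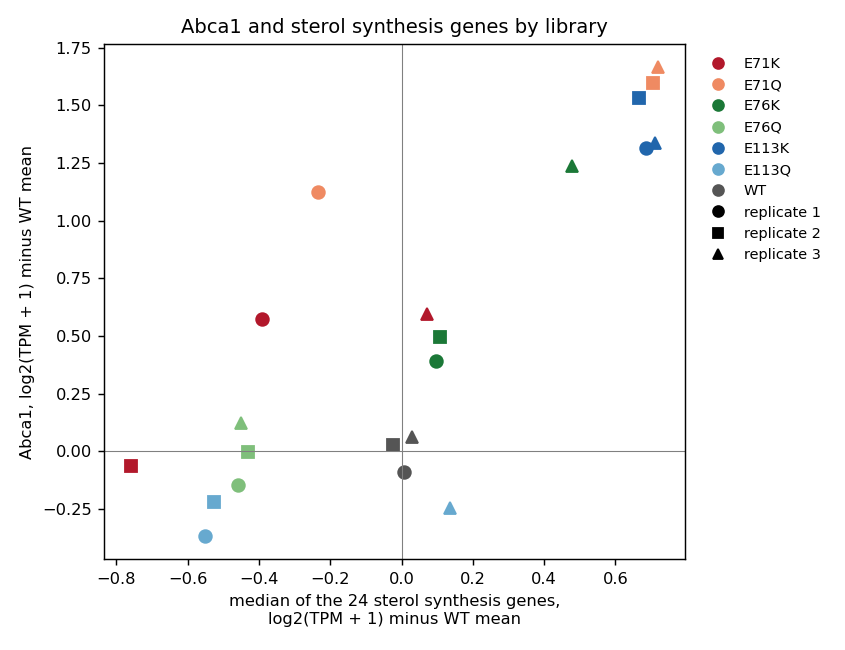
Abca1 (vertical) against the median of the 24 sterol synthesis genes (horizontal), both as log2(TPM + 1) minus the WT mean, in the 21 libraries coloured by group. The E113K libraries lie at 0.67 to 0.71 on the horizontal axis and 1.31 to 1.53 on the vertical one, and the E76Q libraries at -0.46 to -0.43 and -0.15 to 0.12.

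Abcg1, the partner of Abca1 in cholesterol export, was under 1 TPM in every library and was not tested. It was at 0.702, 0.473 and 0.526 TPM in E71Q, against 0.0446, 0.0952 and 0.0338 TPM in WT. Each E71Q library was above each library of the other groups, the next highest being E71K replicate 3 at 0.440 TPM. E113K, in which Abca1 was about as high as in E71Q, had 0.184, 0.144 and 0.123 TPM of Abcg1. The other 4 mutants ranged from 0.0357 to 0.440 TPM, and all of them overlapped WT except E76Q, at 0.0961, 0.148 and 0.201 TPM.

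Abca2, a transporter of endosomes and lysosomes linked to sphingolipid and cholesterol traffic, was lower in 5 mutants. It was at 4.55, 4.32 and 4.36 TPM in E113K and at 4.23, 4.15 and 9.52 TPM in E113Q, against 18.7, 20.2 and 20.1 TPM in WT. Both groups lay wholly below WT, as did E76K at 8.35, 8.94 and 11.4 TPM, E76Q at 9.93, 10.4 and 10.5 TPM, and E71K at 9.72, 6.77 and 16.0 TPM. E71Q, at 11.9, 20.2 and 21.4 TPM, overlapped WT.

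The log2 fold change of Abca2 was -1.93 ± 0.27 (SE) in E113K (limma adjusted p = 2.18e-05), -1.65 in E113Q (limma adjusted p = 0.000186), -0.98 in E76K (limma adjusted p = 0.0114), -0.87 in E76Q (limma adjusted p = 0.0162) and -0.88 in E71K (limma adjusted p = 0.0235). It was -0.17 and not called in E71Q (limma adjusted p = 0.638). The E71K call was lost without E71K replicate 1 or 2, without any WT library and in a fit of only those 6 libraries, and the other 4 calls were kept in all 33 alternatives. Lysine and glutamine did not differ by a called amount at any residue, with differences of -0.71 at E71 (limma adjusted p = 0.0689), -0.11 at E76 and -0.28 at E113, each ± 0.27 (SE). At E71 the difference was called in 8 of 33 alternatives. The genes most like Abca2 were Mfsd12 (Pearson r = 0.900) and Tyro3 (r = 0.893).

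Scarb1, the receptor for high-density lipoprotein, was lower in every mutant. It was at 13.0, 8.13 and 7.86 TPM in E71K, 10.9, 10.8 and 11.3 TPM in E71Q, 11.9, 12.2 and 8.63 TPM in E76K, 4.41, 5.29 and 5.36 TPM in E76Q, 10.3, 9.99 and 9.11 TPM in E113K, and 10.0, 8.60 and 6.20 TPM in E113Q, against 31.2, 28.3 and 28.9 TPM in WT. The lowest WT library was above the highest mutant library, and all E76Q libraries were below all others. The 5 other mutants overlapped their neighbours in the order of means.

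The log2 fold change of Scarb1 was -1.55 in E71K, -1.34 in E71Q, -1.37 in E76K, -2.34 in E76Q, -1.50 in E113K and -1.74 in E113Q, each ± 0.17 (SE), and all 6 were called (highest limma adjusted p = 8.96e-06, in E76K). Of the tested genes 360 (2.95%) were called lower in all 6 mutants, and 445 (3.65%) were called higher in all 6. Scarb1 was one of the 360, and none of the tested members was among the 445. All 6 calls were kept in all 33 alternatives. E76K was 0.97 above E76Q (limma adjusted p = 0.000343), while the lysine minus glutamine difference was -0.20 at E71 (limma adjusted p = 0.408) and 0.24 at E113 (limma adjusted p = 0.322). The difference at E76 was kept in all 33 alternatives. The genes most like Scarb1 were Mical2 (Pearson r = 0.966) and 1700037H04Rik (r = 0.945).

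Lrp1, a large endocytic receptor for apolipoprotein E and many proteases, was the most abundant member in all groups but E76Q. Against WT it ran opposite to Scarb1 in every mutant. Among the mutants the order was not opposite, since E76Q had the lowest mean for both genes (82.5 TPM of Lrp1 and 5.02 TPM of Scarb1). Lrp1 was at 188, 214 and 156 TPM in E113K, against 53.3, 51.8 and 56.8 TPM in WT. The libraries were at 102, 58.5 and 108 TPM in E71K, 80.1, 110.3 and 108 TPM in E71Q, 69.6, 95.0 and 142 TPM in E76K, 70.6, 81.4 and 95.4 TPM in E76Q, and 94.1, 80.3 and 92.8 TPM in E113Q. Every mutant library was above every WT library, and every E113K library above every other one.

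The log2 fold change of Lrp1 was 1.76 ± 0.24 (SE) in E113K (limma adjusted p = 1.37e-05), 0.86 in E71Q (limma adjusted p = 0.00765), 0.85 in E76K (limma adjusted p = 0.0113), 0.71 in E113Q (limma adjusted p = 0.0315) and 0.67 in E71K (limma adjusted p = 0.0444). It was 0.59 in E76Q, just short of the threshold (limma adjusted p = 0.0517) and called in 13 of 33 alternatives. The E71K call was kept in only 15 of 33, the E76K call was lost without E76K replicate 3 (0.58, limma adjusted p = 0.0797), and the E113Q call was lost without E113Q replicate 1 or 3 or any WT library. E113K was 1.05 above E113Q (limma adjusted p = 0.00352), kept in all 33 alternatives. The genes most like Lrp1 were Pkd1 and Dync1h1 (Pearson r = 0.932 for each).

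**Figure D4:**
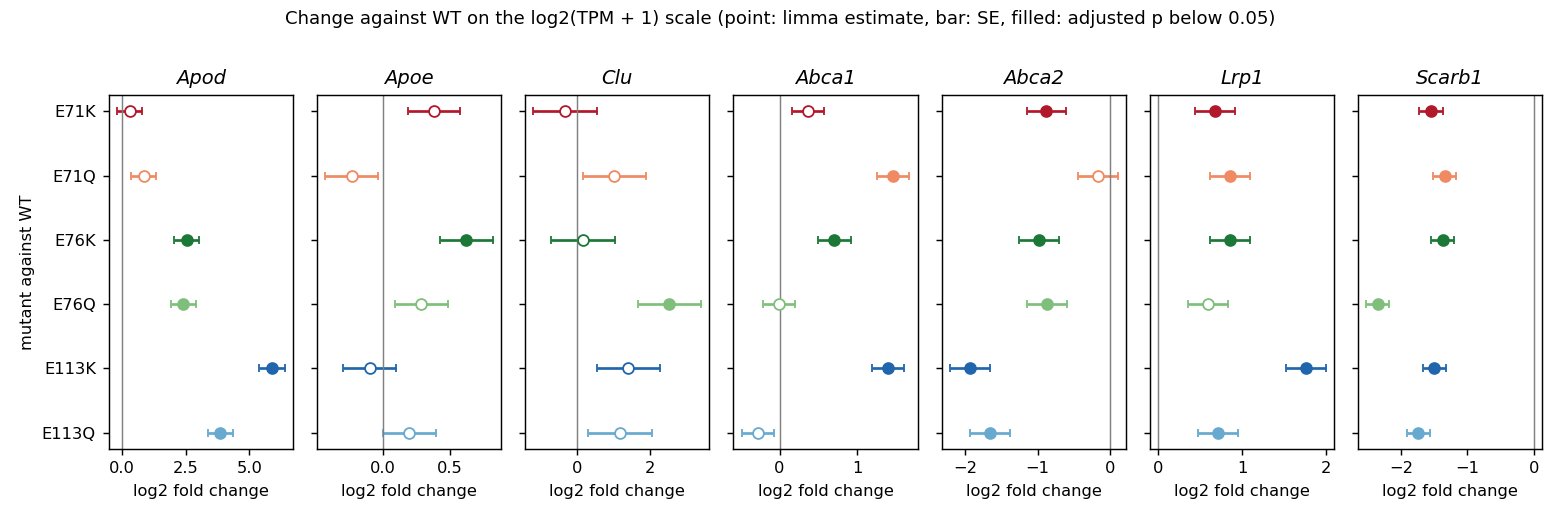
Log2 fold change of each tested gene in each mutant against WT (horizontal, log2(TPM + 1) scale, its own range in each panel); points are limma estimates, bars are SE, and filled points had an adjusted p below 0.05. Scarb1 lies left of 0 in all 6 mutants, Lrp1 lies right of it in all 6 with 5 called, and Abca1 is called in E71Q, E76K and E113K only.

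Set out by mutant, 5 of the 7 tested members were called in E113K, 3 higher and 2 lower, where 51% of all tested genes were called (30.3% higher, 20.7% lower). The E113K libraries of 6 tested members did not overlap WT, as was so for 76.1% of all tested genes. Here and in the comparisons of lysine with glutamine, counts without overlap leave out Abcg1 and Lcn2, which were not tested. In E113Q 4 members were called, 2 in each direction, where 30.6% of all were (17.9% higher, 12.7% lower), and 6 did not overlap WT (56.4% of all). All tested members but Clu were called in E76K, 4 higher and 2 lower, where 33.2% of all were (23.5% higher, 9.67% lower), and 6 did not overlap WT (63.8% of all). In E76Q 4 were called, 2 in each direction, where 44.3% of all were (22% higher, 22.4% lower), and 5 did not overlap WT (72.8% of all). In E71K 3 were called, 1 higher and 2 lower, where 26.7% of all were (12.5% higher, 14.2% lower), and 3 did not overlap WT (32.6% of all). In E71Q 3 were called, 2 higher and 1 lower, where 44.2% of all were (20.7% higher, 23.5% lower), and 4 did not overlap WT (57.7% of all).

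Lysine and glutamine differed for 2 members at E71, with Apoe higher and Abca1 lower in E71K, where 25.1% of all tested genes were called (12.8% higher, 12.3% lower). These 2 did not overlap (22.6% of all). They differed for 3 at E76, with Abca1 and Scarb1 higher and Clu lower in E76K, where 31.9% of all were called (23.4% higher, 8.46% lower), and 3 members did not overlap (58.5% of all). At E113 they differed for Apod, Abca1 and Lrp1, all higher in E113K, where 28% of all were called (14.6% higher, 13.3% lower), and 3 did not overlap (52.8% of all). The lysine minus glutamine difference itself differed between E71 and E113 for 4 members (32.7% of all tested genes), between E71 and E76 for 2 (21.7%) and between E76 and E113 for 2 (29.5%). The Apoe difference at E71 was 0.61 ± 0.19 (SE, limma adjusted p = 0.0305) and was called in 26 of 32 alternatives. The Clu difference at E76, -2.36 ± 0.86 (SE, limma adjusted p = 0.0462), was called in 16 of 33. Apod differed at E113 by 2.03 ± 0.50 (SE, limma adjusted p = 0.00583) and was called in all 33. With 7 members these shares can move far with a single gene, and no test of the members as a set was made.

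The median log2 difference of all tested genes from WT was 0.16 in E76K and 0.13 in E113K, and 0.065 or less in size in the other mutants, and after median-ratio rescaling it was 0.011 in E76K and 0.0054 in E113K. The called Apod, Abca1, Abca2, Scarb1 and Lrp1 differences from WT kept their direction under the 3 other scalings tried.

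The counts of each further list are read beside those shares and medians of all tested genes, and the differences between a list and all genes were not tested. Other transporters of the ABCA and ABCG families included genes that were higher in every mutant. Of 19 on the list 7 were tested, with 3 higher and 1 lower in E71K, 2 and 1 in E71Q, 3 and 0 in E76K, 2 and 1 in E76Q, 3 and 1 in E113K, and 3 and 0 in E113Q. Their median log2 difference ran from -0.029 in E71Q to 0.45 in E71K. Abcg2, an exporter of urate, porphyrins and many drugs, was at a mean of 40.1 to 95.7 TPM in the mutants, against 16.1 TPM in WT. Its log2 fold change was 2.47 in E71K, 2.03 in E71Q, 1.37 in E76K, 1.84 in E76Q, 1.60 in E113K and 1.26 in E113Q, each called. Abca5, a lysosomal transporter, rose by 1.87 to 2.39 in all 6 mutants.

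In the LDL receptor family with its adaptors, 12 of 17 genes were tested, and members moved in both directions. There were 1 higher and 3 lower in E71K, 8 and 1 in E71Q, 2 and 3 in E76K, 5 and 3 in E76Q, 8 and 2 in E113K, and 5 and 3 in E113Q. Their median ran from 0.21 in E71K to 0.69 in E71Q. Lrp8, a receptor for reelin and apolipoprotein E, was lower in all 6 mutants, by -2.25 in E76Q to -0.71 in E76K. Lrp12, a relative of Lrp1, was higher in all 6, by 0.55 in E113K to 2.60 in E71Q. Among 8 tested scavenger receptors besides Scarb1, there were 1 higher and 1 lower in E71K, 3 and 1 in E71Q, 4 and 0 in E76K, 1 and 0 in E76Q, 5 and 0 in E113K, and 2 and 0 in E113Q. Their median ran from 0.015 in E71K to 0.71 in E113K. Scarb2, a lysosomal membrane protein of the same family as Scarb1, was higher in all 6 mutants, by 0.55 to 1.10.

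The LXR receptors, their partners and coregulators, and target genes other than the members gave 12 tested genes, of which 1 was higher and 2 lower in E71K, 2 and 1 in E71Q, 2 and 1 in E76K, 3 and 2 in E76Q, 6 and 1 in E113K, and 1 and 1 in E113Q. Their median ran from -0.30 in E71K to 0.45 in E113K. Among them, Scd1, a fatty acid desaturase, was higher in E71Q (1.02), E76K (0.97) and E113K (0.91), the 3 mutants in which Abca1 was called with all libraries. The median of the 12 genes was 0.13 in E71Q, 0.12 in E76K and 0.45 in E113K. Beside these, the median of all tested genes was 0, 0.16 and 0.13, so Scd1 does not stand for the list. Arl4c, a small GTPase, was lower in 5 mutants, all but E71K. The 15 tested genes of cholesterol traffic and esters had 0 higher and 3 lower in E71K, 4 and 3 in E71Q, 4 and 2 in E76K, 2 and 3 in E76Q, 7 and 2 in E113K, and 4 and 2 in E113Q, with a median from -0.14 in E71K to 0.44 in E113K. Cav1, the main protein of caveolae, was lower in all 6 mutants, by -2.72 in E76K to -0.82 in E71Q. Of 7 tested lipoprotein lipases and transfer genes, 1 was higher and 1 lower in E71K, 3 and 1 in E71Q, 2 and 2 in E76K, 2 and 1 in E76Q, 3 and 1 in E113K, and 3 and 1 in E113Q, with a median from 0.028 in E71K to 0.60 in E71Q. Lipa, the lysosomal lipase that frees cholesterol from esters, was higher in 5 mutants, by 0.53 in E76Q to 1.60 in E113K, and was not called in E71K (0.12).

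Only 3 of 14 other apolipoproteins were tested, with 0 higher and 0 lower in E71K, 1 and 1 in E71Q, 1 and 0 in E76K, 1 and 0 in E76Q, 1 and 1 in E113K, and 1 and 0 in E113Q, and a median from -0.16 in E71K to 1.09 in E76K. Likewise 3 of 15 further lipocalins and related lipid-binding genes were tested, with 0 higher and 1 lower in E71K, 2 and 1 in E71Q, 2 and 0 in E76K, 0 and 2 in E76Q, 1 and 1 in E113K, and 1 and 0 in E113Q, and a median from -1.40 in E76Q to 1.38 in E76K. Fabp4, a fatty acid binding protein of adipocytes and macrophages, was at a mean of 56.3 TPM in E76K, against 0.382 TPM in WT, a log2 fold change of 5.31. Of 9 tested acute phase genes, 0 were higher and 4 lower in E71K, 4 and 4 in E71Q, 2 and 3 in E76K, 2 and 3 in E76Q, 3 and 1 in E113K, and 2 and 3 in E113Q, with a median from -0.64 in E71K to 0.0076 in E76K. Lbp, the lipopolysaccharide binding protein, was lower in all 6 mutants, by -3.10 in E71K to -0.82 in E76K.

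Several of the 9 genes are also expressed by macrophages, adipocytes, hepatocytes, glia or epithelia, so markers of those cells were read in the same libraries. Mesenchymal markers summed to 8289 to 12801 TPM in E71K, 10997 to 12751 TPM in E71Q and 11259 to 12268 TPM in E76K. They summed to 11373 to 12397.5 TPM in E76Q, 11409 to 11728 TPM in E113K and 10777 to 11460 TPM in E113Q. The WT sum was 8611 to 8887 TPM, and all 10 markers were detected. All 10 were tested, with 7 called higher and 0 lower in E113K, 5 and 0 in E113Q, and 4 and 1 in E76K. There were 3 higher and 2 lower in E76Q, 3 and 4 in E71Q, and 2 and 1 in E71K. The 10 macrophage markers summed to 8.71 to 13.4 TPM in E71K, 14.6 to 21.1 TPM in E71Q, 18.9 to 23.2 TPM in E76K, 15.0 to 16.8 TPM in E76Q, 11.0 to 12.1 TPM in E113K and 8.04 to 10.5 TPM in E113Q, against 15.0 to 16.9 TPM in WT. Among them 1 gene, Cd14, a co-receptor for lipopolysaccharide, passed the filter, and it was called lower in E71K and E113Q. The defining macrophage markers Adgre1, Csf1r and Ptprc were at or below 0.221, 0.145 and 0.172 TPM in every library, the hepatocyte marker Alb at or below 0.0765 TPM with a sum of all hepatocyte markers of at most 2.13 TPM, and the epithelial marker Epcam at or below 0.0949 TPM. Cdh1 was also chosen as a defining epithelial marker, and Gfap beside Sox10 as a glial one. Their levels are not given here, so Epcam and Sox10 do not stand for their lists. Adipocyte markers summed to 177 to 202 TPM in E76K, 130.1 to 141 TPM in E113K, 101 to 147 TPM in E71Q, 56.0 to 58.1 TPM in E113Q, 40.5 to 42.6 TPM in E76Q and 12.8 to 36.0 TPM in E71K, against 68.0 to 80.8 TPM in WT. The 3 groups above WT in this sum were those in which Abca1 was called with all libraries, while Adipoq stayed at or below 0.877 TPM and Plin1 at or below 0.168 TPM. Of the 8 adipocyte markers, Fabp4 among them, only 2 were tested, so the sum does not stand for the list. Both were called higher in E71Q, E76K and E113K, 1 was higher in E113Q, and 1 was lower in E71K and in E76Q. Any part of adipocyte-like cells in the Abca1 result was not tested. Glial markers summed to 29.2 to 121 TPM in E71K, 132 to 318 TPM in E71Q, 11.5 to 23.5 TPM in E76K, 99.4 to 109.6 TPM in E76Q, 27.1 to 29.6 TPM in E113K and 16.4 to 48.2 TPM in E113Q, against 55.2 to 59.2 TPM in WT, with Sox10 at or below 0.352 TPM. Of the 8 glial markers 3 were tested, with 3 called higher and 0 lower in E71Q and 2 and 0 in E76Q. There were 0 higher and 1 lower in E76K and in E113Q, and 0 and 0 in E71K and E113K. All 3 were lower in E71K than in E71Q and in E76K than in E76Q. Epithelial markers summed to 81.9 to 489 TPM in E71K, 41.5 to 365 TPM in E71Q, 2.08 to 10.1 TPM in E76K, 1.54 to 1.90 TPM in E76Q, 0.829 to 0.993 TPM in E113K and 2.77 to 4.48 TPM in E113Q, against 12.4 to 15.1 TPM in WT. E71K and E71Q thus lay above WT in this sum and the other 4 mutants below it. The sum did not stand for the list, of which 3 of 7 genes were tested. In both E71K and E71Q 1 of these was called higher and 2 lower, with a median log2 difference of -0.86 and -2.17.

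By likeness over the 21 libraries, Apod was closest to Mme (Pearson r = 0.935) and Nid2 (r = 0.933), Apoe to Smarcb1 (r = 0.778) and Mrps35 (r = 0.773), Abcg1 to Klf9 (r = 0.839) and Chst12 (r = 0.827), and Lcn2 to Nfkbie (r = 0.840) and Ly6f (r = 0.823). These correlations were taken against 9921 or 9922 genes that averaged 5 TPM or more. They share libraries and groups and are a description.

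The 9 genes lie on different chromosomes apart from Abca2 and Lcn2, both on chromosome 2, and no exon of another annotated gene overlaps any of them. In GRCm38.p6, Apod is at chr16:31296192-31314808 (minus strand), Apoe at chr7:19696244-19701310 (minus), Abca1 at chr4:53030789-53159988 (minus), Abca2 at chr2:25428599-25448544 (plus), Abcg1 at chr17:31057694-31117984 (plus), Lcn2 at chr2:32384637-32387739 (minus), Clu at chr14:65968483-65981548 (plus), Lrp1 at chr10:127538157-127621148 (minus) and Scarb1 at chr5:125277087-125341094 (minus).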

How the data were processed

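RNA sequencing of 21 libraries was used. The authors deposited TPM for 24091 genes per library, and each library summed to between 999897 and 999931. The submitters' processing notes name Salmon, featureCounts 1.4.4, DESeq and mm10, and which made the TPM is not given in the sources used here. RNA was isolated with an RNeasy kit and libraries made with NEBNext Ultra II, per the labels' protocols; poly(A) selection and strand are not stated. An H2B transgene cannot be told from endogenous H2B in these values. The authors' table of group means was not used.

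The 12192 genes averaging 1 TPM or more were fitted as log2(TPM + 1) with limma 3.58.1 in R 4.3.3, in a model of 7 groups whose variances were moderated along a trend with intensity (residual df 14, prior df 3.19). It gave 6 comparisons with WT, 3 of lysine with glutamine, 3 interactions and an F test, each adjusted by Benjamini-Hochberg over all tested genes. Errors are SD of TPM or SE of log2 differences. The members, the pathway and marker lists and the tests were chosen with earlier results of these data known. From each list the 3 genes with the largest mean absolute change against WT among those of at least 5 TPM could be named, and for each member the 2 genes most like it. The script was tested on simulated data. Promoter windows are RefSeq's (GRCm38.p6), and exon overlaps were checked in GENCODE M21. Depth is unknown, so no counting intervals are given.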

Additional observations from a re-analysis of the deposited data

Results flagged for a closer look

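The lysine minus glutamine difference of 5 members was not the same at all residues, by limma's interaction test with Benjamini-Hochberg adjustment over all tested genes. Values are log2 differences ± SE, and each rests on 4 groups of 3 libraries.

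At E71 the Abca1 difference was lower than at E113 by -2.76 ± 0.30 (limma adjusted p = 3.62e-06) and lower than at E76 by -1.81 ± 0.30 (limma adjusted p = 0.000221), and at E76 it was lower than at E113 by -0.96 ± 0.30 (limma adjusted p = 0.0214). The first and second were called in all 33 alternatives. The E76 and E113 contrast was called in 29 of 33 and lost without E76K replicate 1 or 2, E76Q replicate 3 or E113K replicate 2.

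For Apod, the difference at E71 minus that at E113 was -2.59 ± 0.70 (limma adjusted p = 0.0095), and for Lrp1 it was -1.23 ± 0.34 (limma adjusted p = 0.00977), both called in all 33 alternatives. For Apoe it was 0.90 ± 0.28 (limma adjusted p = 0.0189), and it was lost without E113Q replicate 1 (0.72).

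For Scarb1, the difference at E71 minus that at E76 was -1.18 ± 0.24 (limma adjusted p = 0.00193), called in all 33 alternatives, and that at E76 minus that at E113 was 0.73 ± 0.24 (limma adjusted p = 0.0315), called in 25 of 33.

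Of the 7 tested members, 4 were called between E71 and E113, where 32.7% of all tested genes were called, 2 between E71 and E76 (21.7%), and 2 between E76 and E113 (29.5%). With 3 libraries in each group, no single library was tested for lying far from its mates.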

How the results depend on the processing

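Counts of called genes in 9 comparisons and of called members in 13 were recomputed under 33 alternatives. Of these, 21 left out 1 library each. The rest changed the pseudocount, filter, scaling, variance moderation, replicate block or set of libraries fitted. Median-ratio rescaling gave 5135 genes in E71K against WT (3250 as reported), 5263 in E71K against E71Q (3060) and 5302 in E113K against E113Q (3408), and 4 members in the E76 and E113 interaction (2). Quantile normalization gave 5076, 5147 and 5295 genes in the same 3 comparisons. Leaving out Mir6236 gave 5238 genes and 5 members (3) in E71K against WT, 4973 genes in E71K against E71Q, and 4 members in the E76 and E113 interaction. Fits of only the libraries compared gave 1442 genes and 1 member in E71K against WT, 6136 genes in E76K (4044) and 8276 in E76Q (5403) against WT, 346 genes and 0 members (2) in E71K against E71Q, and 1 member (3) in E76K against E76Q. Without the 4 libraries that lay apart there were 4939 genes in E71K and 5 members (3) in E71Q against WT, 6541 genes and 4 members in E71K against E71Q, 6054 genes in E76K against E76Q (3890), 5486 in E113K against E113Q, and 4 members (2) in the E71 and E76 and 5 in the E76 and E113 interactions. No filter gave 5 members in E71Q against WT, and a mean of at least 5 TPM gave 1 in E71K against E71Q.

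With each library left out in turn, members called ranged from 1 to 3 in E71K and 3 to 6 in E76K against WT, from 1 to 3 in E71K against E71Q and in E76K against E76Q, and from 0 to 5 in the E76 and E113 interaction, and genes called in E71K against E71Q from 1815 to 4713. Log2 differences from WT whose sign turned ranged from -0.30 to 0.68 for Apod and -1.46 to 0.34 for Clu in E71K, -0.32 to 0.077 for Abca2 in E71Q, -0.80 to 0.68 for Clu in E76K, -0.074 to 0.060 for Abca1 in E76Q, and -0.23 to 0.038 for Apoe in E113K. Between lysine and glutamine they ranged from -0.34 to 0.096 for Lrp1 at E71, -0.62 to 0.58 for Apod and -0.0092 to 0.50 for Lrp1 at E76, and -0.46 to 0.058 for Abca2 and -0.064 to 0.79 for Clu at E113. In the interactions they ranged from -1.29 to 0.070 for Apod and -0.13 to 1.99 for Clu (E71 and E76), and -0.17 to 0.35 for Abca2 (E76 and E113). None of these was called as reported.

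The sign turned, in differences that were not called as reported, for Apod in E71K against WT (-0.30), Abca2 in E71Q against WT (0.077), Clu in E76K against WT (-0.80), Apod (-0.62) and Lrp1 (-0.0092) in E76K against E76Q, Abca2 in E113K against E113Q (0.058) and Abca2 in the E76 and E113 interaction (-0.29), all without the 4 libraries apart. Under quantile normalization it turned for Clu in E76K against WT (-0.0084), Apod in E76K against E76Q (-0.0045) and Abca2 in the E76 and E113 interaction (-0.021), under median-ratio rescaling for Apod in E76K against E76Q (-0.010), and without Mir6236 for Abca1 in E76Q against WT (0.065). The cause was not tested.

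Replicate numbers are not stated to pair the libraries. The residual correlation of same-numbered libraries had a median of -0.00111 over 63 pairs (-0.174 to 0.416), beside -0.00132 for other-numbered ones. A median over all pairs cannot show whether some of them share an effect. On the common axis replicate 3 was highest in E71K (19.2), E71Q (26.1), E76K (16.8), E113Q (11.4) and E113K (18.5), and replicate 2 in E76Q (17.9) and WT (-28.1). An effect of replicate number on that axis was not tested. With the replicate block, members called in E76Q against WT were 5 (4), in E71K against E71Q 3 (2), and in the F test 7 (6), and in the E76 and E113 interaction 3 (2). No count of genes moved by 1.5 times under it.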
